A study of Saccharomyces cerevisiae with 12 samples.

Results

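The nuclear basket is a set of filaments on the nucleoplasmic face of the nuclear pore complex, through which budding yeast takes up proteins and releases mRNA. Nup60, Nup1 and Nup2 are nucleoporins of this face. The long coiled-coil proteins Mlp1 and Mlp2 form the filaments, Pml39 binds them and helps to keep unspliced mRNA in the nucleus, and Esc1 sits at the inner nuclear envelope, where it tethers silenced telomeres. The transcripts described here are those of the 7 genes NUP60, NUP1, NUP2, MLP1, MLP2, PML39 and ESC1, chosen by name from 5449 genes tested. All 7 were found on the array, each by 1 probe set, and all had group means above the background level in every group. When NUP60 was deleted, MLP1, MLP2, NUP1 and NUP2 transcripts fell by 16.8% to 23.6%, whereas PML39 and ESC1 did not pass the test. Over all genes 26.2% fell and 25.1% rose in that comparison. Without 2 arrays that stood apart, described below, the log2 differences of the genes that fell ran from -0.37 for MLP1 to -0.17 for NUP2. They still passed, where 33.6% of all genes fell.

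Transcripts were read on 12 Affymetrix arrays, with 3 biological replicates in each of 4 Saccharomyces cerevisiae groups. Wild type was MATa his3 leu2 met15 ura3. The nup60 group carried nup60Δ::KANR in that background, the ada2 group carried ada2Δ::KANR, and the group labelled nup60 ada2 carried both, KANR being a kanamycin resistance marker put in place of the gene. Ada2 belongs to SAGA, a coactivator that acetylates histones. Every culture was grown in 50 mL of YEPD, a rich medium, at 30 °C to mid-log phase. No drug or inducer was named for any group. The labels give 1 genotype per group and do not say how many clones it stands for. The effect of a deletion and other features of the strain that carries it cannot be told apart. In RNA from a whole culture, less RNA per cell and fewer cells with the transcript cannot be told apart either.

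Values are log2 of the deposited probe set intensities. A background level of 5.62 was taken from probe sets of a second yeast, S. pombe. A gene passed at a limma adjusted p below 0.05, with Benjamini-Hochberg adjustment over all 5449 genes in each comparison. Errors of differences are standard errors with n = 3 arrays per group, and intervals are 95% intervals from the same fit. A level is specific to its probe set, so levels are compared between groups and not between genes.

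The arrays labelled nup60 ada2 did not match the labelled mating type and ura3 genotype. All 7 transcripts of the a-cell list were above background in the other groups. Their summed intensity was 68867 to 85480 on the wild-type and nup60 arrays and 35628 to 39267 on the ada2 arrays. In the labelled double deletion the sum was 9832 to 9857, with HMRA1 below background and the other 6 above it. MFA1 and AGA2 were nearly as low in ada2 (10.69 and 10.87) as in the labelled double deletion (10.62 and 10.73). The 5 measured transcripts of the alpha-cell list summed to 61181 to 73407 in the labelled double deletion, against 1563 to 2155 elsewhere. In the other groups HMLALPHA1 and MF(ALPHA)1 were below background and the other 3 were above it. URA3 was at 12.77 in the labelled double deletion and below background in the 3 other groups. Among the other labelled markers, HIS3 was at 12.42 to 12.53 and LEU2 at 6.14 to 6.70 over the 4 groups, all above background. MET17, read for met15, was below background in every group. HIS3 and LEU2 transcripts were thus present in groups labelled his3 and leu2. By the mating-type and URA3 transcripts, any comparison with the labelled double deletion also compared mating type and URA3. Their part in the results below was not tested.

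A pair of arrays stood apart in their controls. Spiked-in poly-A transcripts averaged 8.95 on wild-type array 1 and 9.14 on array 3 of the labelled double deletion, against 6.74 to 7.99 on the other 10 arrays. The upper end of that range came from arrays 1 and 2 of the labelled double deletion, at 7.39 and 7.99. On wild-type arrays 2 and 3 and all nup60 and ada2 arrays the spikes were at 6.74 to 7.09. The labelled double deletion thus had higher spike levels than those arrays even without its array 3. On the pair that stood apart, most of the basket transcripts were higher as well. Of the 6 genes other than NUP60, 5 were higher on wild-type array 1 than on both other wild-type arrays, where 46.2% of all genes were. The excess was 0.060 for MLP1 and 0.24 to 0.32 for MLP2, NUP1, NUP2 and ESC1, each taken against the mean of the other 2. On array 3 of the labelled double deletion the same 5 genes were the higher ones, by 0.17 to 0.47, where 39% of all genes were. PML39 was lower than the mean of the other 2 on both, with differences of -0.062 and -0.21. The median difference over all genes was 0.0059 and -0.015 on these arrays. The 3′ over 5′ ratio of the ACT1 control probes, a sign of RNA integrity, was 0.0875 and 0.14 on the log2 scale, against 0.024 to 0.069 on the rest. The same ratio of SRB4 was 2.25 and 2.39, inside the 2.13 to 2.46 of the rest. For SPT15 it was 1.27 on wild-type array 1, inside the 1.19 to 1.36 of the rest. On array 3 of the labelled double deletion it was 1.53, above that range. The part of this pair of arrays in the results was not tested, nor was that of the higher spike level of the labelled double deletion. The counts against wild type and many single values are therefore also given without 1 or both of these arrays.

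**Figure D1:**
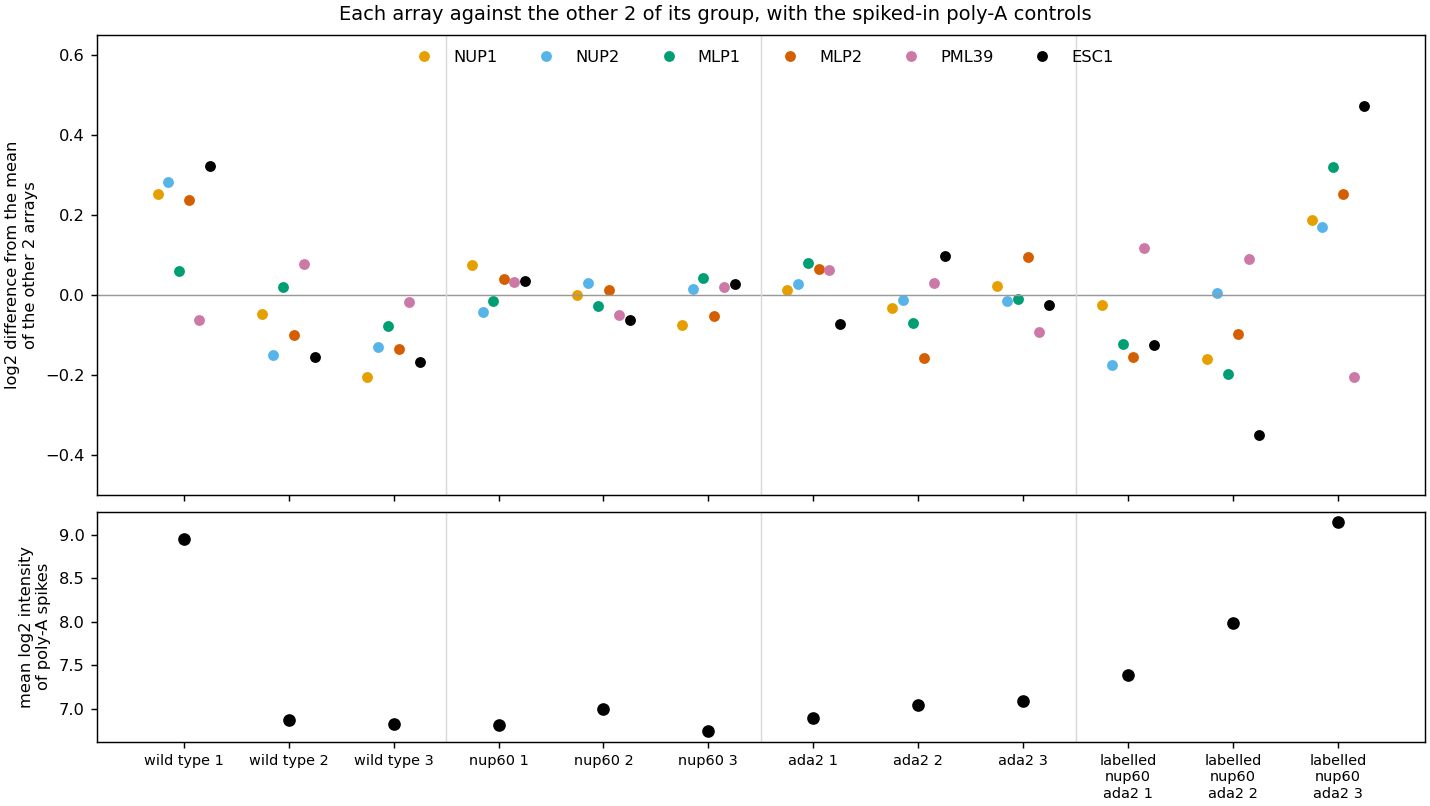
The upper panel plots, for each of the 12 arrays, the log2 difference of the 6 genes other than NUP60 from the mean of the other 2 arrays of the group, and the lower panel the mean log2 intensity of the poly-A spikes. Wild-type array 1 and array 3 of the labelled double deletion have the highest spike levels, 8.95 and 9.14, and on both NUP1, NUP2, MLP1, MLP2 and ESC1 lie above 0 and PML39 below it.

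NUP60, which encodes the protein that anchors the basket, was read first as a check of the labels. It stood at 12.50, 12.57 and 12.51 on the wild-type arrays and at 12.27, 12.23 and 12.19 on the ada2 arrays. On the nup60 arrays it was at 6.43, 6.51 and 6.17, and on those of the labelled double deletion at 6.02, 6.27 and 6.32. The gene was thus low on every array whose label names its deletion. A remainder lay above the background level on all 6 of these arrays, 71.4-fold below wild type in nup60 and 80.3-fold below it in the labelled double deletion. What the probe set detects there was not tested. The remainder did not pass between the labelled double deletion and nup60 (-0.17 ± 0.091, interval -0.37 to 0.032, limma adjusted p = 0.128). It did pass without nup60 array 3 (-0.27, limma adjusted p = 0.0165) and after quantile normalization (-0.45, 0.00016).

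NUP60 also fell where it was not deleted. On the ada2 arrays its transcript was below every wild-type array, and it fell by 18.8% (-0.30 ± 0.091, limma adjusted p = 0.0204). It no longer passed when wild-type array 2 (limma adjusted p = 0.0593), ada2 array 2 (0.0511) or ada2 array 3 (0.0648) was left out, while the difference stayed between -0.32 and -0.28 when any array was left out. ADA2, for its part, was at 10.94 ± 0.021 (SD, n = 3) in wild type and 10.72 ± 0.023 in nup60. It was below background in ada2 (4.23) and in the labelled double deletion (4.39).

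**Figure D2:**
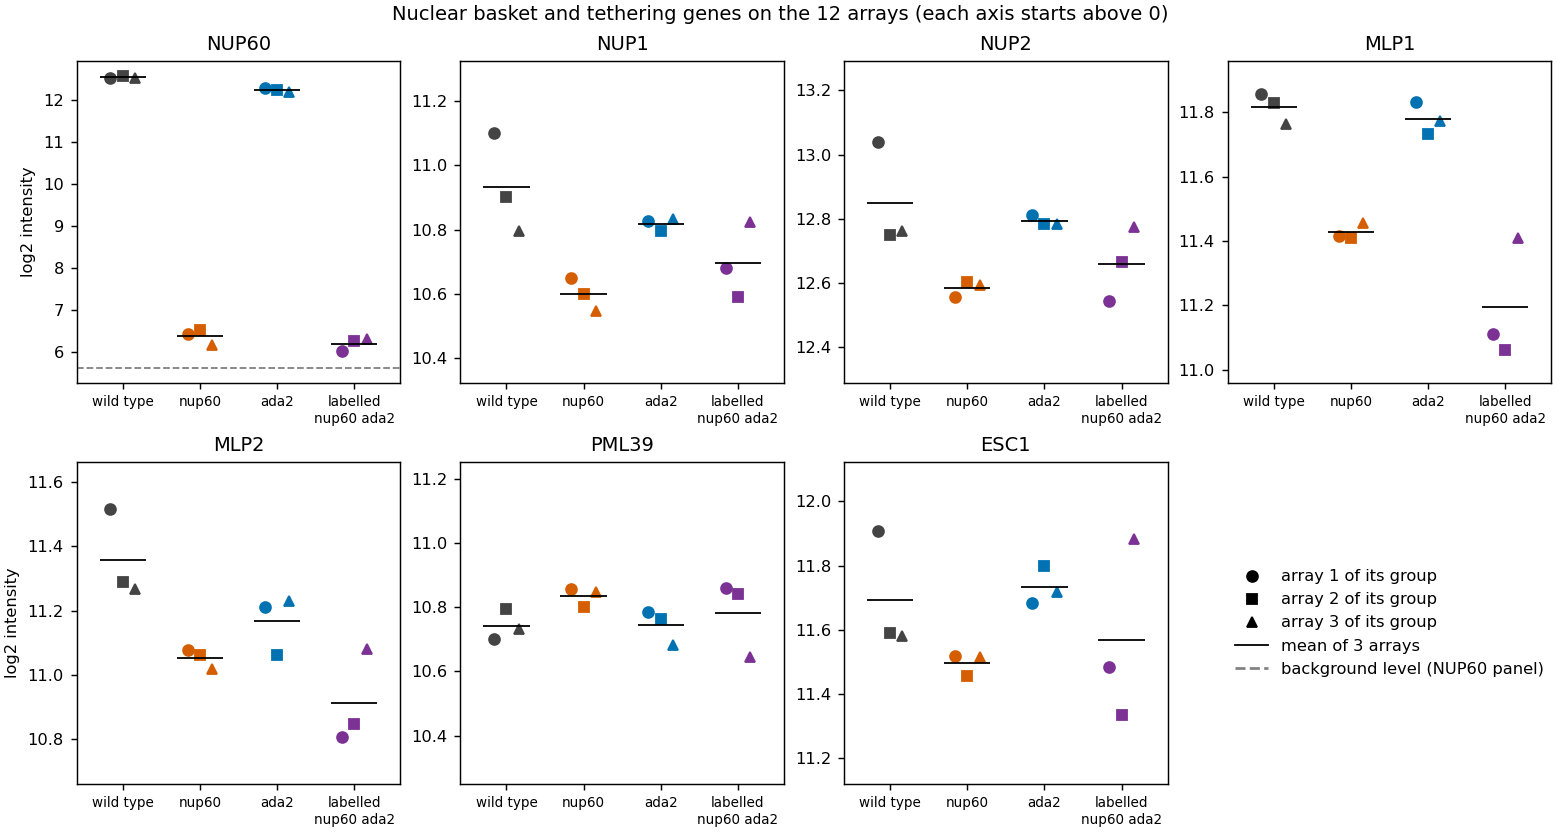
Log2 intensity (vertical axis) of the 7 genes on each array, by group (horizontal axis), with symbols for array 1, 2 and 3 and a line at the mean. The NUP60 panel spans the full fall from about 12.53 in wild type to 6.37 in nup60, with the background level of 5.62 dashed. The other panels span 1 log2 unit each, and in them the nup60 arrays lie below all wild-type arrays except for PML39, where they lie above.

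MLP1 encodes the larger of the filament proteins of the basket, a coiled-coil protein that also takes part in retention of unspliced mRNA. Its transcript was at 11.86, 11.83 and 11.76 on the wild-type arrays and at 11.83, 11.73 and 11.77 on the ada2 arrays. It was at 11.42, 11.41 and 11.46 on the nup60 arrays and at 11.11, 11.06 and 11.41 on those of the labelled double deletion. All arrays of nup60 and of the labelled double deletion lay below all wild-type and ada2 arrays. Over all genes, 34.4% lay below without overlap in nup60 against wild type. The share of all genes with this split of the 4 groups was not counted.

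Relative to wild type, MLP1 fell by 23.6% in nup60 (-0.39 ± 0.076, limma adjusted p = 0.00161) and by 35.1% in the labelled double deletion (-0.62 ± 0.076, limma adjusted p = 2.12e-05). The ada2 difference was -0.038 ± 0.076 (interval -0.21 to 0.13, limma adjusted p = 0.709). Set directly against ada2, MLP1 was lower in nup60 (-0.35 ± 0.076, limma adjusted p = 0.00264). In the labelled double deletion it was lower than in nup60 (-0.23 ± 0.076, limma adjusted p = 0.0198), and every array of the former lay below every array of the latter. On array 3 of the labelled double deletion and nup60 array 2, MLP1 was equal at the precision printed, 11.41.

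That last call depended on single arrays. It was lost without nup60 array 3 (-0.22, limma adjusted p = 0.0603), without array 1 of the labelled double deletion (-0.19, 0.0727) and without its array 2 (-0.17, 0.0818). Without both arrays that stand apart it was -0.34 ± 0.038 (limma adjusted p = 2.99e-05). The departure of MLP1 from the sum of the single effects did not pass on all 12 arrays (-0.20 ± 0.11, interval -0.43 to 0.043, limma adjusted p = 0.171). It passed without array 3 of the labelled double deletion (-0.30, limma adjusted p = 0.00285) and without both arrays that stand apart (-0.32 ± 0.053, 0.0011). The sum of the single effects was -0.43, against -0.62 measured.

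MLP2 encodes the other filament protein, a paralog of Mlp1 that also contacts the spindle pole body. It was at 11.52, 11.29 and 11.27 on the wild-type arrays, with array 1 the highest. The nup60 arrays read 11.08, 11.06 and 11.02, all below wild type. The ada2 arrays read 11.21, 11.06 and 11.23, between these groups and overlapping nup60. In the labelled double deletion MLP2 was at 10.81, 10.85 and 11.08, and the array that stands apart was again the highest.

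Against wild type, MLP2 fell by 19.1% in nup60 (-0.31 ± 0.084, limma adjusted p = 0.011) and by 26.6% in the labelled double deletion (-0.45 ± 0.084, limma adjusted p = 0.000579). In ada2 its 3 arrays lay below the wild-type arrays, but the difference did not pass (-0.19 ± 0.084, interval -0.38 to -0.0055 unadjusted, limma adjusted p = 0.0863). It passed there without array 3 of the labelled double deletion (limma adjusted p = 0.0398), which is in neither group and left the difference unchanged. Without both arrays that stand apart it was smaller, -0.11 ± 0.049, and did not pass (limma adjusted p = 0.072). The direct difference of nup60 and ada2 was -0.11 ± 0.084 and did not pass (interval -0.30 to 0.070, limma adjusted p = 0.277). Without both arrays that stand apart, neither of which is in these groups, the difference was the same and passed (limma adjusted p = 0.0395).

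Between the labelled double deletion and nup60, MLP2 was at -0.14 ± 0.084 (interval -0.33 to 0.045, limma adjusted p = 0.167). Without array 3 of the labelled double deletion it passed at -0.22 (limma adjusted p = 0.0267). Against ada2 the labelled double deletion was lower by a log2 difference of -0.25 ± 0.084 (limma adjusted p = 0.0187). The latter call was lost without ada2 array 1 (limma adjusted p = 0.0598), ada2 array 3 (0.0656), or array 1 (0.0733) or 2 (0.0652) of the labelled double deletion.

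NUP1 encodes a nucleoporin with FG repeats that binds import receptors on the nuclear side of the pore. Its transcript was at 11.10, 10.90 and 10.80 in wild type. The nup60 arrays read 10.65, 10.60 and 10.55, the lowest of the 4 groups by mean, and none overlapped wild type. The ada2 arrays read 10.83, 10.80 and 10.83, inside the range of wild type. The labelled double deletion read 10.68, 10.59 and 10.82, and its array 3 also reached into the wild-type range.

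NUP1 fell by 20.7% in nup60 (-0.33 ± 0.076, limma adjusted p = 0.00412) and by 15.1% in the labelled double deletion (-0.24 ± 0.076, limma adjusted p = 0.0161). The ada2 difference was -0.11 ± 0.076 (interval -0.28 to 0.054, limma adjusted p = 0.244), and -0.030 without wild-type array 1. Without wild-type array 1 the nup60 difference was -0.25 and passed. That of the labelled double deletion was -0.15 without it and did not pass (limma adjusted p = 0.0506), nor did it without array 2 of the labelled double deletion (-0.18, 0.0686). Between the labelled double deletion and nup60 the difference of NUP1 did not pass (0.099 ± 0.076, interval -0.070 to 0.27, limma adjusted p = 0.279). Directly against ada2, it was lower in nup60 (-0.22 ± 0.076, limma adjusted p = 0.0313). This call was lost when nup60 array 2 or 3 or any 1 ada2 array was left out, with a limma adjusted p of at least 0.0593.

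NUP2 encodes a mobile FG nucleoporin that docks on Nup60 and helps to recycle importin alpha. It was at 13.04, 12.75 and 12.76 in wild type and at 12.56, 12.60 and 12.59 in nup60, which did not overlap. It was at 12.81, 12.78 and 12.78 in ada2 and at 12.54, 12.66 and 12.78 in the labelled double deletion. Wild-type array 1 was the highest of all 12.

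NUP2 fell by 16.8% in nup60 (-0.27 ± 0.076, limma adjusted p = 0.0142). Without wild-type array 1 the difference was -0.17 and still passed (limma adjusted p = 0.0468). In ada2 it was -0.057 ± 0.076 (interval -0.23 to 0.11, limma adjusted p = 0.57). In the labelled double deletion it was -0.19 ± 0.076 (limma adjusted p = 0.0442), and this call was lost when any 1 array was left out except wild-type array 2 or 3 or array 3 of the labelled double deletion. Without wild-type array 1 it was -0.095 (limma adjusted p = 0.152), and without both arrays that stand apart -0.15 ± 0.041 (0.00646). Directly against ada2, NUP2 was lower in nup60 (-0.21 ± 0.076, limma adjusted p = 0.0402). That call was lost without any 1 nup60 or ada2 array or without array 2 of the labelled double deletion, at a limma adjusted p of 0.0542 to 0.107.

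PML39, whose product binds the Mlp filaments, was the gene among the 6 others whose nup60 value lay above wild type. It was at 10.70, 10.79 and 10.73 in wild type and at 10.86, 10.80 and 10.85 in nup60, so that each nup60 array lay above each wild-type array. The ada2 arrays read 10.79, 10.76 and 10.68 and the labelled double deletion 10.86, 10.84 and 10.64, and both overlapped wild type. The nup60 difference was 0.094 ± 0.057 and did not pass (interval -0.032 to 0.22, limma adjusted p = 0.189). Against wild type the other differences were 0.0016 ± 0.057 in ada2 and 0.039 ± 0.057 in the labelled double deletion. Without array 3 of the labelled double deletion, where PML39 was low, the latter was 0.11 (limma adjusted p = 0.0429), and against ada2 it was 0.11 (0.0486). When wild-type array 1 was left out as well, the difference from wild type was 0.087 ± 0.041 and did not pass (limma adjusted p = 0.078), and that from ada2 was 0.11 and did (0.0268).

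ESC1, the telomere tether at the nuclear envelope, had the widest spread of the 6 among the wild-type arrays and among those of the labelled double deletion. It was at 11.91, 11.59 and 11.58 in wild type and at 11.52, 11.46 and 11.52 in nup60. It was at 11.68, 11.80 and 11.72 in ada2 and at 11.49, 11.34 and 11.88 in the labelled double deletion. The nup60 arrays lay below all wild-type and all ada2 arrays, yet no comparison of ESC1 passed on all 12 arrays. Relative to wild type it was at -0.20 ± 0.13 in nup60 (interval -0.47 to 0.083, limma adjusted p = 0.216), at 0.041 ± 0.13 in ada2 (0.813) and at -0.12 ± 0.13 in the labelled double deletion (0.39).

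Single arrays changed several of the ESC1 calls. Without array 3 of the labelled double deletion, ESC1 was lower there than in wild type (-0.28, limma adjusted p = 0.0196) and than in ada2 (-0.32, 0.0111). The difference of nup60 from ada2 was -0.24 ± 0.13 on all 12 arrays and did not pass (limma adjusted p = 0.139). Without that array, which is in neither group, the difference was the same and passed (limma adjusted p = 0.034). In a fit of only the nup60 and ada2 arrays it was -0.24 ± 0.037 (limma adjusted p = 0.00113). Without both arrays that stand apart the nup60 difference from wild type was -0.088 ± 0.049 (limma adjusted p = 0.145) and the ada2 difference 0.15 ± 0.049 (0.0261). That of the labelled double deletion was -0.17 ± 0.054 (limma adjusted p = 0.0138).

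**Figure D3:**
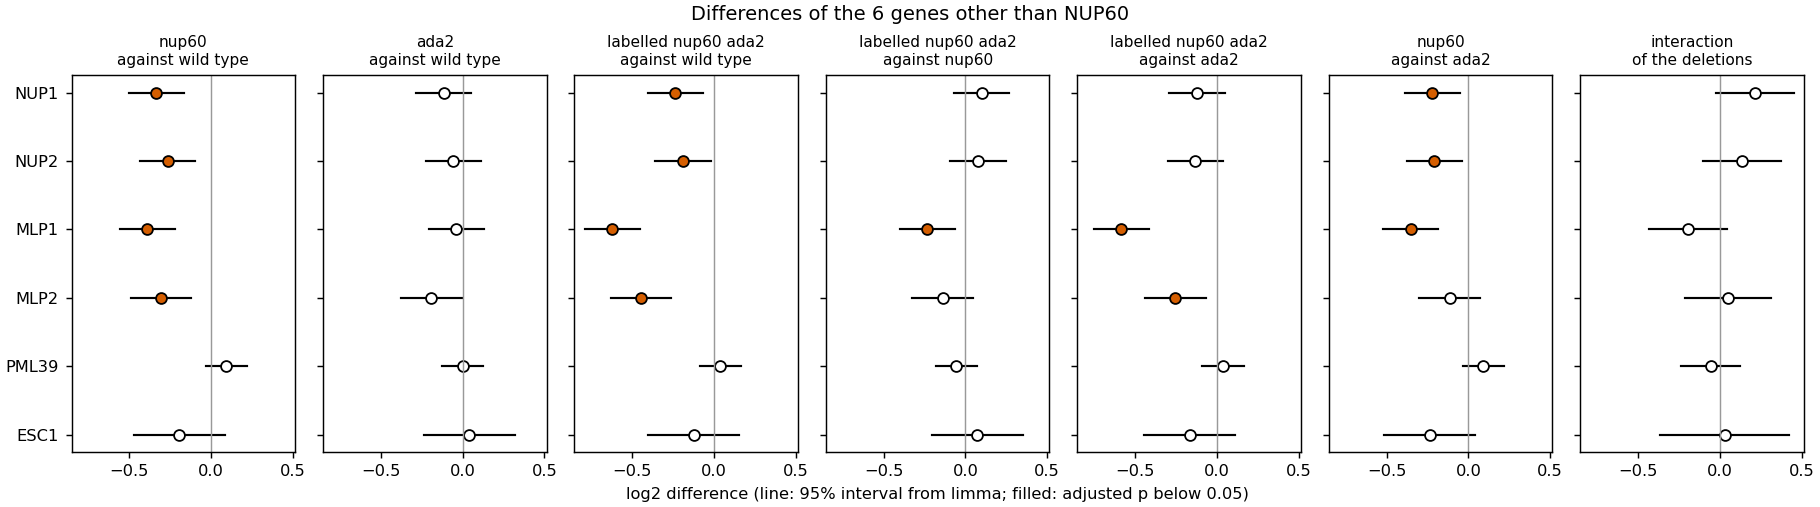
Log2 differences (horizontal axis) of the 6 genes other than NUP60 in the 7 comparisons, with 95% intervals, filled where the limma adjusted p was below 0.05. In nup60 against wild type 4 of 6 genes are filled, all to the left of 0, in ada2 against wild type none, and MLP1 is filled in 5 of the 7.

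Counted together, 4 of the 6 genes other than NUP60 fell in nup60 and none rose, and NUP60 itself was the fifth of 7. Over all genes 51.3% passed in this comparison, 26.2% downward and 25.1% upward. The median difference of the 6 genes was -0.29, against -0.024 over all genes. The nup60 and wild-type arrays did not overlap for any of the 6, with nup60 below for 5, where 63.9% of all genes did not overlap and 34.4% lay below. MLP1 was the 350th lowest difference of 5449 genes, NUP1 the 495th, MLP2 the 605th and NUP2 the 795th. None of the 6 moved by as much as 2-fold. When both arrays that stand apart were left out 4 of the 6 fell, against 33.6% of all genes.

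In ada2, limma called 0 of the 6 genes against wild type, where 45.7% of all genes passed. At an unadjusted p below 0.05 the count was 1, MLP2, and all genes were not counted at that threshold. The median of the 6 was -0.048, against -0.013 over all genes, and 1 of them did not overlap wild type, where 56.8% of all genes did not. On the 10 other arrays 1 of the 6 passed, ESC1 upward, where 31.0% of all genes rose and 30.1% fell.

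In the labelled double deletion 4 of the 6 fell against wild type and none rose. Of all genes tested 73.2% passed, 37.1% downward and 36.1% upward. The median of the 6 was -0.21, against -0.0056 over all genes. Only MLP1 and MLP2 did not overlap wild type among the 6, where 70.3% of all genes did not. The count was 2 of 6 when wild-type array 1 or array 2 of the labelled double deletion was left out, since NUP1 and NUP2 then did not pass. Of all genes 75.6% and 70.1% passed in these fits, both directions together. Without both arrays that stand apart the count was 5 of 6, where 39.2% of all genes fell and 40.7% rose.

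Set against nup60, the labelled double deletion had 1 of 6 lower, MLP1, where 30.6% of all genes were lower. Set against ada2 it had 2 of 6 lower, MLP1 and MLP2, where 33.9% of all genes were lower. Leaving out both arrays that stand apart gave 5 lower and 1, PML39, higher, where 38.8% of all genes were lower and 40.0% higher. Between nup60 and ada2, 3 of 6 were lower in nup60, namely MLP1, NUP1 and NUP2, where 26.9% of all genes were lower. Here too, leaving out both arrays gave 5 lower and PML39 higher, where 36.7% of all genes were lower and 32.8% higher. Neither array belongs to the nup60 or ada2 group, so the differences stayed the same and only their errors changed. No departure from the sum of the single effects passed for any of the 7 genes by limma, where 39.2% of all genes passed. None of the 7 had an unadjusted p below 0.05 either, a threshold at which all genes were not counted. With both arrays that stand apart left out 2 passed, MLP1 (-0.32) and ESC1 (-0.24, limma adjusted p = 0.0204), where 48.3% of all genes passed. Without wild-type array 3 NUP1 passed (0.28, limma adjusted p = 0.0487). These comparisons share arrays and are not independent of each other.

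**Figure D4:**
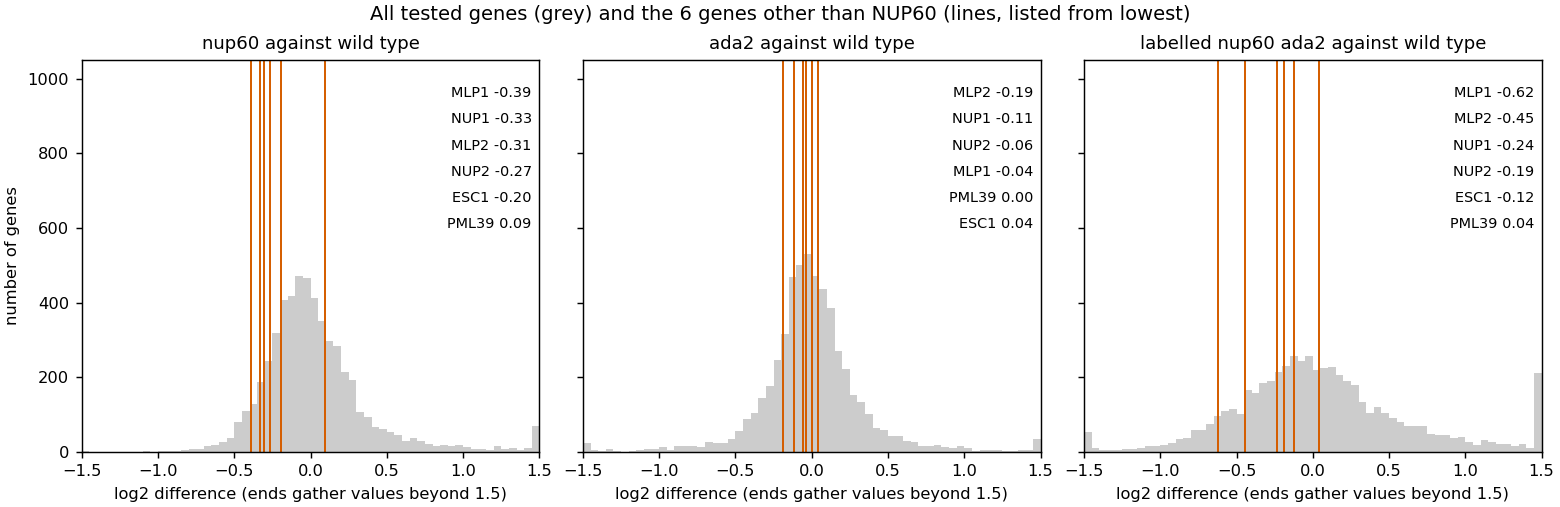
The number of genes (vertical axis, grey bars) at each log2 difference from wild type (horizontal axis) in the 3 other groups, with lines at the 6 genes other than NUP60 and their values listed. In nup60 the lines run from -0.39 for MLP1 to 0.094 for PML39 and 5 lie below the median of all genes, -0.024, while in ada2 they lie between -0.19 and 0.041.

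Other genes of the pore and the nuclear periphery were read in 4 lists. Their counts in nup60 stand beside 26.2% of all genes down and 25.1% up, and beside 33.6% down and 30.3% up without both arrays that stand apart. The scaffold and membrane ring of the pore, which hold the basket in place, fell in nup60 for 12 of 17 genes and rose for none, with a median of -0.25. Among them were POM152 (-0.42 ± 0.063), a membrane ring protein, NUP120 (-0.41 ± 0.083), of the outer ring, and NUP192 (-0.40 ± 0.085), of the inner ring. Nucleoporins of the channel and the cytoplasmic side fell for 4 of 10 and rose for none, with a median of -0.10. The lowest passing values were those of NUP100 (-0.36 ± 0.12), NUP82 (-0.35 ± 0.11) and NUP159 (-0.19 ± 0.068). The genes and lists were chosen with earlier results of these arrays known, and these counts are no independent evidence of direction. Wild-type array 1 exceeded the mean of the other 2 wild-type arrays by a median of 0.23 over the scaffold list and 0.14 over the channel list. On the 10 other arrays the counts were again 12 and 4 down, with medians of -0.17 and -0.064.

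Proteins that dock at the basket or pass through it moved both ways in nup60, 3 of 13 down and 2 up, with a median of -0.065. The mRNA-binding protein gene NAB2 rose (0.59 ± 0.037), as did the export adaptor gene YRA1 (0.51 ± 0.038). KAP95, the importin beta that binds Nup1, fell (-0.41 ± 0.063). The list of telomere anchoring and peripheral silencing fell for 5 of 9 genes and rose for none, with a median of -0.27, among them RIF1 (-0.44 ± 0.11), RAP1 (-0.42 ± 0.093) and SIR2 (-0.29 ± 0.052). Over that list the excess of wild-type array 1 had a median of 0.41. With both arrays that stand apart left out 5 of 9 fell, with a median of -0.12. The docking list then had 5 down and 4 up. Over all genes 33.6% then fell and 30.3% rose, against 26.2% and 25.1% on all 12 arrays.

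In ada2 the scaffold list had 3 of 17 down and 1 up, the channel list 3 of 10 down, the docking list 4 of 13 down and 2 up, and the telomere list 0 of 9 down and 1 up. All genes together had 23.0% down and 22.7% up. These counts moved without both arrays that stand apart. The telomere list then had 1 down and 5 up, with a median of 0.17, the channel list 3 down and 3 up, and the scaffold list 4 down and 3 up, where all genes had 30.1% down and 31.0% up. The docking list had 5 down and 2 up. The labelled double deletion had, against wild type, 8 of 17 scaffold genes down and 1 up, and 6 of 10 channel genes down and 2 up. It had 5 of 13 docking genes down and 3 up, and 2 of 9 telomere genes down and 3 up, where 37.1% of all genes were down and 36.1% up.

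Genes whose pattern was most like a member were found by the root mean square difference over the 12 arrays, after each gene was centred on its own mean, among 5282 genes above background in every group. Nearest to MLP1 were MYO5, at 0.056, and SDA1, at 0.058 on the log2 scale. MLP2 itself was 0.14 from MLP1, a distance at which it would rank 211 among the genes outside the 7. Nearest to MLP2 were SCP160 (0.050) and EMW1 (0.052). For NUP1 they were PRP8 (0.044) and PMT4 (0.052), and for NUP2 MRX12 (0.042) and ALK2 (0.043). NUP1 and NUP2 differed from each other by 0.064, the smallest distance between any pair of the 6. Among the genes outside the 7, NUP2 would rank 18 for NUP1, and NUP1 would rank 37 for NUP2. Nearest to ESC1 were CHS5 (0.054) and YLL032C (0.056), and to PML39 PSY4 (0.037) and YDL177C (0.039). The largest distance was that of MLP1 and PML39, at 0.31. All genes were read on the same 12 arrays, so that arrays which stand apart enter every one of these distances.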

How the data were processed

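The deposited values were intensities per probe set on a linear scale, between 11.4 and 51828, which the authors made by RMA in Affymetrix Expression Console 1.1, as the submitters' processing notes say. Per the labels' protocols, 5 µg of total RNA was labelled with biotin. Here log2 was taken and no further normalization applied. Gene names came from the platform's probe table, updated through a RefSeq table. Of 10928 probe sets, 5498 stood for 5449 genes, and the probe set with the highest mean was used. The background level was the 95th percentile of array means over 1746 S. pombe probe sets. Between 105 and 148 genes per array lay below it, 105 or 106 in the labelled double deletion and 123 to 148 elsewhere. Median intensity over all probe sets was 225 to 244 in the labelled double deletion and 158 to 197 elsewhere. The number of arrays limits the precision.

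The 7 comparisons were fitted in limma 3.58.1 (R 4.3.3) over all 12 arrays, with 1 mean per group and moderated variances (8 residual degrees of freedom, 2.58 from the prior). Figures were drawn with Python 3.11.15. The 7 genes, the 4 lists, the array pair left out and the rule for named genes were chosen with earlier results of these data known. The rule took the members, up to 3 genes per list with the largest passing change in nup60, and the 2 genes nearest to each member. In simulated data with 200 changed genes among 5449, 3 against 3 arrays recovered 50%, 88.5% and 99.5% at log2 changes of 0.25, 0.5 and 1. The false calls were 4, 16 and 3. The main fit had no block, since the labels do not say that replicate numbers pair the arrays. Deviations of same-numbered arrays of different groups correlated from -0.73 to 0.37, and 4 of 18 pairs exceeded 0.1. For arrays of other numbers the range was -0.63 to 0.73, and 12 of 36 pairs exceeded 0.1. Whether same-numbered arrays were handled together was not tested. Alternatives, 21 in number, were quantile normalization, centring, dropping dim genes, array weights, an intensity trend, averaging probe sets, fitting the compared groups alone, a replicate block, each array left out, and 2 arrays left out together. List counts without those 2 arrays were added after seeing the data. Sequences of the genes were not used here.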

Additional observations from a re-analysis of the deposited data

How the results depend on the processing

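In nup60 against wild type the deleted gene NUP60 and 4 of the 6 others passed under all 21 alternatives, where 41.9% to 68.9% of all genes passed. The counts of 7 below include NUP60, which is deleted by label in nup60 and in the labelled double deletion. Over all 7 comparisons, 911 of the values of single genes kept their direction and side of the threshold, 39 lost the call, 37 gained one and 35 changed sign. The counts elsewhere moved, and the cause was not tested. When each array was left out in turn, the count of 7 ranged from 0 to 2 for ada2 and from 3 to 7 for the labelled double deletion, both against wild type. Over all genes 36.9% to 50.8% and 69.9% to 75.6% passed in these fits. For the labelled double deletion the count ranged from 0 to 2 against nup60 and from 2 to 5 against ada2. There 56% to 69.3% and 63.5% to 74.3% of all genes passed. The count ranged from 2 to 5 for nup60 against ada2 and from 0 to 1 for the interaction. There 45.1% to 59.8% and 30.1% to 39.6% of all genes passed. Without both arrays that stand apart, the counts were 2 in ada2 against wild type, 2 and 7 in the labelled double deletion against nup60 and ada2, 7 in nup60 against ada2, and 2 in the interaction. Of all genes 61.1%, 73.3%, 78.9%, 69.5% and 48.3% then passed, in the same order. Array weights gave 3, 7, 7 and 2 in the last 4 of these comparisons, where 78.5%, 81.4%, 70.6% and 55.2% of all genes passed. Quantile normalization gave 2 for the labelled double deletion against nup60, and centring gave 5 for it against ada2. Of all genes 62.8% and 70.8% passed there. A fit of only the groups compared, which has fewer arrays, gave the labelled double deletion 3 against wild type and 0 against nup60. In that fit 64.2% and 63.3% of all genes passed. For nup60 against ada2 the same kind of fit gave 6, where 68.6% of all genes passed. ESC1 (limma adjusted p = 0.00113) and PML39 (0.049) were gained.

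Differences that changed sign with array weights were NUP2 (0.029) and PML39 (-0.034) in ada2 against wild type, ESC1 (-0.13) in the labelled double deletion against nup60, and MLP2 (-0.10), PML39 (0.032) and ESC1 (-0.26) in the interaction. Without both arrays they were NUP2 (0.037) and PML39 (-0.019) in ada2, PML39 (0.013) and ESC1 (-0.086) in the labelled double deletion against nup60, and NUP2 (-0.017), MLP2 (-0.11), PML39 (0.032) and ESC1 (-0.24) in the interaction. Centring turned PML39 in the labelled double deletion against ada2 (-0.010) and ESC1 in the interaction (-0.020). Quantile normalization turned the former (-0.0050), the latter (-0.011) and NUP60 in the interaction (-0.16). None of these had passed on all 12 arrays. With single arrays left out, the ada2 differences ranged from -0.11 to 0.037 for NUP2, from -0.019 to 0.032 for PML39 and from -0.015 to 0.15 for ESC1. In the labelled double deletion against nup60, PML39 ranged from -0.094 to 0.013 and ESC1 from -0.086 to 0.19, and PML39 against ada2 from -0.0014 to 0.11. The interaction ranged from -0.034 to 0.10 for MLP2, from -0.095 to 0.012 for PML39 and from -0.13 to 0.15 for ESC1.

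A replicate block gave counts of 5, 1, 4, 1, 3, 3 and 0 in the 7 comparisons. Of all genes 46.8%, 40.5%, 70.7%, 59.7%, 66.4%, 48.8% and 33.3% then passed. The calls of NUP2 in the labelled double deletion against wild type (limma adjusted p = 0.0725) and in nup60 against ada2 (0.0701) were lost with the block. Of the 12 arrays, 2 correlated best with an array of their own number. At a log2 change of 0.25 the simulation recovered 50% of changed genes, with 200 of 5449 genes changed. A far larger share of genes passed in these comparisons, and the adjusted threshold depends on that share. The 50% therefore does not carry over to them, and how often differences of this size were missed here was not tested.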
